A study of Homo sapiens with 2 samples.

Results

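The genes described here encode the proteins of the mitochondrial ribosome. They were taken by symbol (MRPL or MRPS, a number and at most a letter A, B or C) from the gene entries of the deposited table. The rule found 76 genes of 57736 gene entries, 47 of them MRPL and 29 MRPS. A symbol listed more than once, which applied to MRPL30 and MRPS17, was represented by its entry with the larger summed count. The cells were A549, a lung adenocarcinoma line, with the genotype given as wild type in both groups, and the design text names the line A549 VIM RFP, that is, with a red fluorescent reporter of vimentin. Of the 2 libraries, 1 was labelled as an epithelial to mesenchymal transition (EMT) induced by transforming growth factor beta (TGF-beta), and 1 came from A549 cells without treatment. The TGF-beta dose and the length of treatment were not given in the sources used here. Both libraries were made from 10 ng of total RNA by multiplex PCR of a short amplicon for each targeted gene (AmpliSeq Transcriptome). With 1 library in each group there was no replicate and no test, so each difference below compares these libraries and not the conditions.

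Mitochondria make a small set of inner membrane proteins of the respiratory chain on their own ribosome, whose RNA comes from mitochondrial DNA. Its proteins are all encoded in the nucleus, made in the cytosol and imported. The large subunit forms the peptide bond and passes the new chain through an exit tunnel to the inner membrane, and the small subunit binds and decodes the messenger RNA. Some of these proteins have bacterial relatives and others were added in the mitochondrial lineage. By structure, 49 members belong to the large subunit, among them MRPS18A and MRPS30 despite their names, and 26 to the small subunit. The remaining member, MRPS36, is a component of the alpha-ketoglutarate dehydrogenase complex.

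The libraries held 597133 counts (EMT) and 674784 counts (untreated), and 1965 and 3157 genes respectively reached 20 counts. The 10 genes with the most counts took 43.6% of the EMT library and 32.6% of the untreated one. The 6 mesenchymal markers used summed to 87 counts in the library labelled TGF-beta and to 898 in the untreated library, with vimentin (VIM), the reporter's own gene, at 56 and 452 counts and TGFBI, a gene induced by TGF-beta, at 15 and 407. The order of this sum runs against the label, and FN1, at 3 and 0 counts, was the only marker of the 6 in the other direction. Below, "the EMT library" and "without treatment" mean only the labels, every direction follows them, and each would be the opposite if the labels were exchanged, which was not tested. The 6 epithelial markers, which fit the line's origin, summed to 104 and 291 counts, with 5 and 6 of them detected. KRT7 (32 and 179), KRT8, KRT18 and KRT19 (45 and 51) had fewer counts in the EMT library, while EPCAM (7 and 4) and CDH1 (4 and 1) had more. Scaled to library size as below, KRT19 was higher in the EMT library. Over these lists, alveolar markers summed to 15 and 13, leukocyte markers to 9 and 35, endothelial markers to 14 and 12 and red cell markers to 6 and 7. The part of these values in the results below was not tested.

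Most mitochondrial ribosomal protein genes had fewer counts in the EMT library, and MRPL55 was the large exception. Of the 76 genes, 54 had more counts in the untreated library, 14 had more in the EMT library and 8 were equal, of which 5 were at 0 in both. Values were scaled to CPM, the count per 1e+06 counts of the scaled library, and 55 members reached 5 CPM in at least 1 library. Among these, 38 lay at least 2-fold lower in the EMT library, 3 lay 2-fold or more higher (MRPL55, MRPL52 and MRPS22) and 14 between. Over all 15401 genes that reached the same level, 26.7% were lower by that fold and 22% higher by it, and 29.2% and 21.3% without the genes that had at most 3 counts in both libraries. The median log2 ratio (EMT over untreated) was -1.83 for these members and 0.01 for all genes tested. Of the 55, 30 reached 5 CPM through the untreated library alone and 1 through the EMT library alone, so for those the direction was set by the filter, and these tallies describe the measured genes without standing for the whole set. Among the 24 members at 5 CPM or more in both libraries, 12 were at least 2-fold lower, 2 were higher and 10 lay between, with a median of -1.003, against 19.7% lower and 13.7% higher of the 8433 genes at that level in both. Fewer cells expressing a gene and less RNA per cell cannot be told apart in these bulk samples.

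Counts were low, which sets how firmly a single gene can be read. Only 3 members reached 20 counts in the EMT library against 15 without treatment. Exact 95% intervals on the ratio lay wholly below equality for 27 members and wholly above it for 4 (MRPL55, MRPL52, MRPS22 and MRPL38). Over all genes tested, 16.8% had such an interval below equality and 9.99% above it. Scaling by DESeq2 size factors or by total counts left 2 of the 4 above equality, MRPL55 and MRPL38, and 30 or 29 members below it. Of all genes, 7.57% and 8.26% were then above and 22.1% and 19.6% below. These intervals cover counting error only, since PCR copies read without molecular identifiers are not separate molecules. Ranges in brackets after a count pair or log2 ratio are these intervals, on the log2 scale. Of the 38 members past 2-fold in the lower direction, 26 had an interval below equality and 12 did not. Members at 20 CPM or more in a library numbered 22, with 18 at least 2-fold lower and 2 higher, against 36% and 18.5% of all 5341 genes at that level. All 22 reached it in the untreated library and 3 in the EMT library, so the filter set the direction of the other 19.

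**Figure D1:**
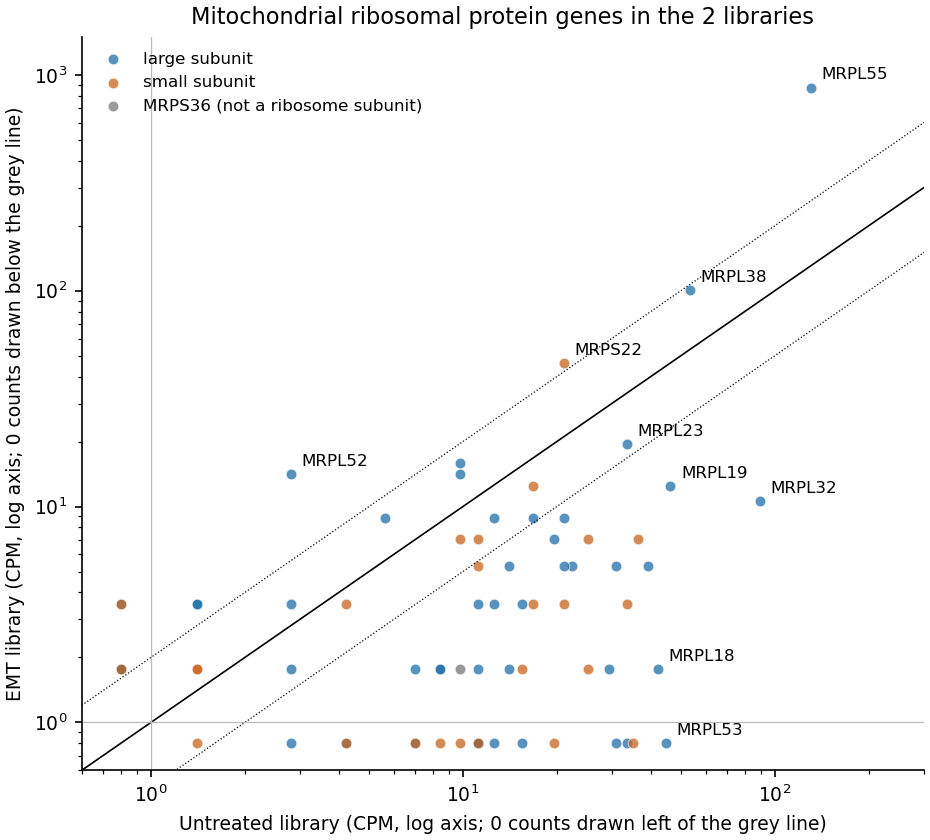
Each point is 1 member, with its CPM in the untreated library on the horizontal log axis and in the EMT library on the vertical log axis, coloured by subunit. Most points lie below the line of equality, and MRPL55 stands far above it at 871 against 130 CPM.

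MRPL55 encodes a large-subunit protein, which the list used here places among members without a clear bacterial counterpart. Its gene (ENSG00000162910; hg19 chromosome 1, 228294380 to 228297013, minus strand) had 492 counts in the EMT library and 93 without treatment. In CPM these were 871 and 130, and the log2 ratio was 2.74 (2.42 to 3.07), 6.68-fold higher. The counts came almost wholly from a single exon of 52 bases in its 5' untranslated part, the first exon of its transcript (hg19 chromosome 1, 228296962 to 228297013). That exon held 99.2% of the gene's exon counts in the EMT library and 91.3% in the untreated library, so the value describes that exon and not the coding part. No other gene entry with a count shared bases with MRPL55.

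The other members past 2-fold in the higher direction rested on few counts. MRPS22, a small-subunit protein in which inherited defects cause mitochondrial disease, had 26 counts in the EMT library and 15 without treatment. Its log2 ratio was 1.13 (0.16 to 2.15), 2.19-fold higher, and scaling by total counts or by DESeq2 size factors put it below 2-fold, at 0.97 and 0.91. Under those scalings 19% and 17.5% of all genes were at least 2-fold higher. The exon of MRPS22 with the most counts (hg19 chromosome 3, 139000556 to 139000677) had 12 counts in the EMT library and 14 without treatment, so the excess lay outside it. The MRPS22 entry overlaps others with counts on the other strand, among them PRR23A (13.25 and 4.5 expected counts) and PRR23C (24.8 and 31.7). Reads of MRPS22 cannot be told apart from those of these genes. MRPL52, of the large subunit, had 8 counts against 2, and its ratio of 5.05 had an interval on the log2 scale from 0.01 to 5.61. MRPL38, a large-subunit protein with a fold like that of phosphatidylethanolamine-binding proteins, had 57 counts against 38 and a log2 ratio of 0.92 (0.30 to 1.55), under 2-fold. With a filter of 1 CPM or none, 6 members were at least 2-fold higher, against 25.3% of all genes, and among genes counted over more than 1 exon, which leaves out MRPL55, 2 members were, against 19.9%.

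MRPL55 held much of the set's summed counts in the EMT library. The 76 members together took 729 counts in the EMT library, 0.122% of all counts (exact 95% interval 0.113 to 0.131). In the untreated library they took 912 counts, 0.135% (0.127 to 0.144). The log2 ratio of these shares was -0.15, and dividing by a total that leaves out the 10 genes with the most counts turned it to 0.11. MRPL55 alone supplied 67.5% of the members' counts in the EMT library and 10.2% in the untreated library. Without it the other 75 members had 237 counts against 819, a log2 ratio of shares of -1.61 (-1.83 to -1.40) and a 3.06-fold lower share. Without MRPL38 as well, 180 counts stood against 781 and the share was 3.84-fold lower.

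**Figure D2:**
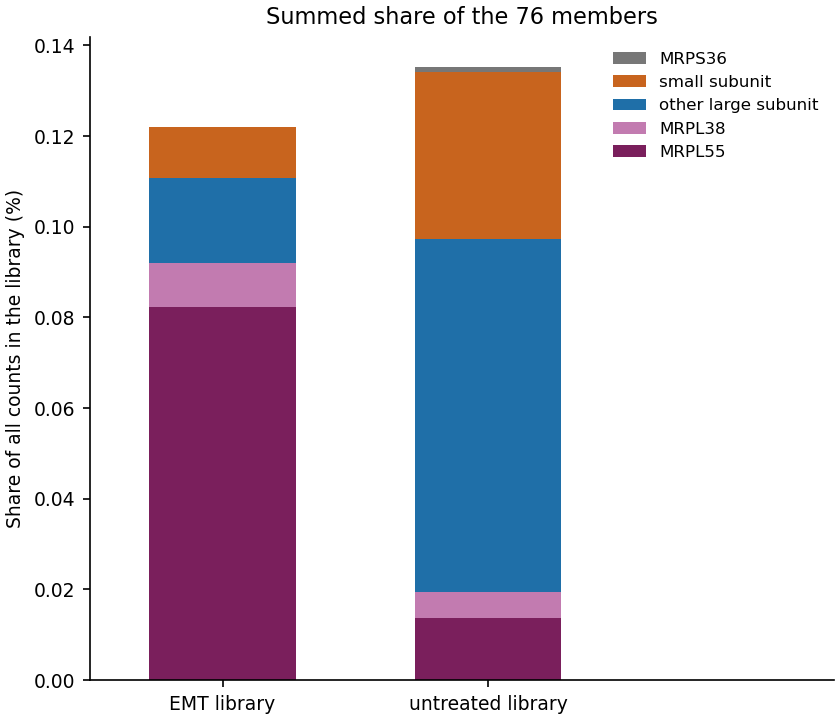
Stacked bars give the members' summed counts as a share (%) of all counts in each library, split into MRPL55, MRPL38, the other large-subunit members, the small-subunit members and MRPS36. The whole bars are close, at 0.122% and 0.135%, while MRPL55 fills 67.5% of the EMT bar and 10.2% of the untreated bar.

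The large subunit without MRPL55 had 169 counts in the EMT library against 564 without treatment, a 2.95-fold lower share. Of the subunit's 49 genes, MRPL55 included, 36 reached 5 CPM, and 26 of them lay at least 2-fold lower and 2 higher (median -1.75 on the log2 scale). Over all genes at that level, 26.7% were lower and 22% higher. Members that reached 5 CPM in the untreated library alone, such as MRPL53, had their direction set by the filter. MRPL10, MRPL11 and MRPL12 form the stalk and its base, where translation factors bind. MRPL10, which anchors the stalk, had 3 counts against 15 and a log2 ratio of -1.99 (-4.42 to -0.16). MRPL11, at the stalk base, had 2 against 11, with an interval that reached equality (-5.34 to 0.07). MRPL12, the stalk's tip protein, had 3 against 10 (-3.90 to 0.56). The gene entries of all 3 were lower in count in the EMT library, and only for MRPL10 did the interval lie below equality. Reads of MRPL12 cannot be told apart from those of SLC25A10, which it overlaps, and its exon entries held 0 counts in the untreated library.

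Among large-subunit proteins listed here with bacterial relatives, the best counted was MRPL32, which is cut by the m-AAA protease before it enters the ribosome. MRPL32 had 6 counts in the EMT library and 64 without treatment, a log2 ratio of -3.08 (-4.58 to -1.88) and 8.45-fold lower. Its exon 1 (hg19 chromosome 7, 42971799 to 42972115), with untranslated and coding bases, held 71.2% and 92% of its exon counts in the EMT and untreated libraries. MRPL3, which lies near the peptidyl transferase centre, had 0 counts against 24 and was at least 6.34-fold lower, with the 0 replaced by 3 counts as a floor. The floor alone sets such a bound, and the upper limit of the interval, -2.25 on the log2 scale for MRPL3, lay closer to equality. MRPL18, of the central protuberance, had 1 count against 30 and a ratio 23.8-fold lower, with a wide log2 interval of -9.92 to -1.98. MRPL19 had 7 counts against 33 and was 3.74-fold lower (-3.32 to -0.70). MRPL32, MRPL18 and MRPL19 were among the 10 members with the most untreated CPM, a choice that favours lower values in the EMT library. The shared direction of these 4 genes is therefore no separate support, and the sizes of their ratios cannot be ranked at these counts. MRPL23, given below, also has a bacterial relative, and its interval included equality. Of other core proteins, MRPL2 had 2 counts against 0 and MRPL16 had 0 against 2, too few for a ratio.

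Proteins around the tunnel and its exit gave a mixed picture at low counts. MRPL24, at the exit, had 0 counts in the EMT library against 22, at least 5.81-fold lower by the floor (interval up to -2.12). MRPL23, its neighbour at the exit, had 11 against 24, a log2 ratio of -0.79 whose interval included equality (-1.97 to 0.29). MRPL22, which lines the tunnel, had 2 against 9 (-5.08 to 0.44). MRPL44, which carries an RNase III-like fold, had 1 against 6 (-7.77 to 0.79), and MRPL4 had 5 against 9 (-2.44 to 1.22). MRPL45, which tethers the ribosome to the inner membrane, had 1 count against 2, too few for a ratio. The interval excluded equality for MRPL24 alone among these 6 genes. MRPL24, MRPL22 and MRPL44 reached 5 CPM in the untreated library alone, so their direction was set by the filter.

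Among large-subunit members without clear bacterial relatives, MRPL53 had 0 counts against 32 in its gene entry, at least 8.45-fold lower by the floor (interval up to -2.70), and MRPL37 had 3 against 28, 7.40-fold lower (log2 interval -5.25 to -1.19). Members listed here with and without a clear bacterial counterpart were then set side by side as groups, MRPS36 left out. The classes are those of the list used here and were not tested. MRPL55, with 492 counts against 93, was placed among those without, and the values of both groups depend on that placing. Of 44 genes listed with a bacterial counterpart, 31 reached 5 CPM, 25 were at least 2-fold lower and 0 higher (median -1.90 on the log2 scale). Their summed counts were 94 against 489, a 4.60-fold lower share. Of 31 genes listed without a clear counterpart, 23 reached 5 CPM, 12 were lower and 3 higher (median -1.08). Their sum was 634 against 416 with MRPL55 and 142 against 323 without it, the latter a 2.01-fold lower share. At 20 CPM or more both medians were -2.54, and with log2(CPM + 1) they were -1.89 and -1.97, so the order of the groups depended on the setting. In both groups, members at 5 CPM in the untreated library alone had their direction set by the filter, and 26.7% of all genes were lower and 22% higher. The difference between the groups was not tested.

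The small subunit had 67 counts in the EMT library against 248 without treatment, a 3.28-fold lower share. Of its 26 genes, 18 reached 5 CPM, and 11 were at least 2-fold lower and 1 higher (median -1.46 on the log2 scale). Over all genes at that level, 26.7% were lower and 22% higher. Members that reached 5 CPM in the untreated library alone, such as MRPS23, had their direction set by the filter. MRPS5, which lies along the path of the messenger RNA, had 4 counts against 26 and was 5.15-fold lower (log2 interval -4.34 to -0.84). MRPS23, a protein without a clear bacterial relative, had 0 against 25, at least 6.60-fold lower by the floor (interval up to -2.32). MRPS2, with a bacterial relative, had 4 against 18, 3.57-fold lower (-3.86 to -0.23). These genes were among the small-subunit genes with the most counts, and each was lower in the EMT library. MRPS22, given above with its overlapping genes, was the best counted of the subunit and went the other way, with 26 counts in the EMT library against 15. MRPS5 and MRPS23 were among the members with the most untreated CPM, a choice that favours lower values in the EMT library. The direction of MRPS5 and MRPS23 is therefore no separate support. MRPS16, in which inherited defects impair mitochondrial translation, had 1 count against 11 (-8.55 to -0.34). MRPS18C, the counterpart of bacterial S18, had 2 against 15 (-5.74 to -0.47). MRPS18B and MRPS18A, which resemble MRPS18C and are counted here as without a clear bacterial counterpart, had 0 against 6, with an interval that included equality (up to 0.10), and 0 against 3, too few for a ratio. In all, 11 small-subunit genes had an interval below equality, against 16.8% of all genes tested, with the same limit of the filter. The 6 of them not named above were MRPS26, MRPS6, MRPS35, MRPS27, MRPS33 and MRPS28, with 0 to 2 counts against 7 to 24.

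Small-subunit genes of the decoding and messenger path were less clear at these counts. MRPS7, in the head of the subunit, had 4 counts against 8 (log2 ratio -0.66), and MRPS11, on its platform, had 4 against 7 (log2 ratio -0.47), and both intervals included equality. MRPS24 had 3 against 8 and a log2 ratio of -1.08, with an interval from -3.63 to 0.98. MRPS12, at the decoding centre, had 1 count against 0, MRPS15 had 1 against 1 and MRPS34 had 0 against 3, all too few for a ratio. Altogether 21 members stayed under 5 CPM in both libraries, and each of them had at most 3 counts in either library. Counts of different members are not a comparison of their expression, because each gene is read through its own amplicon.

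**Figure D3:**
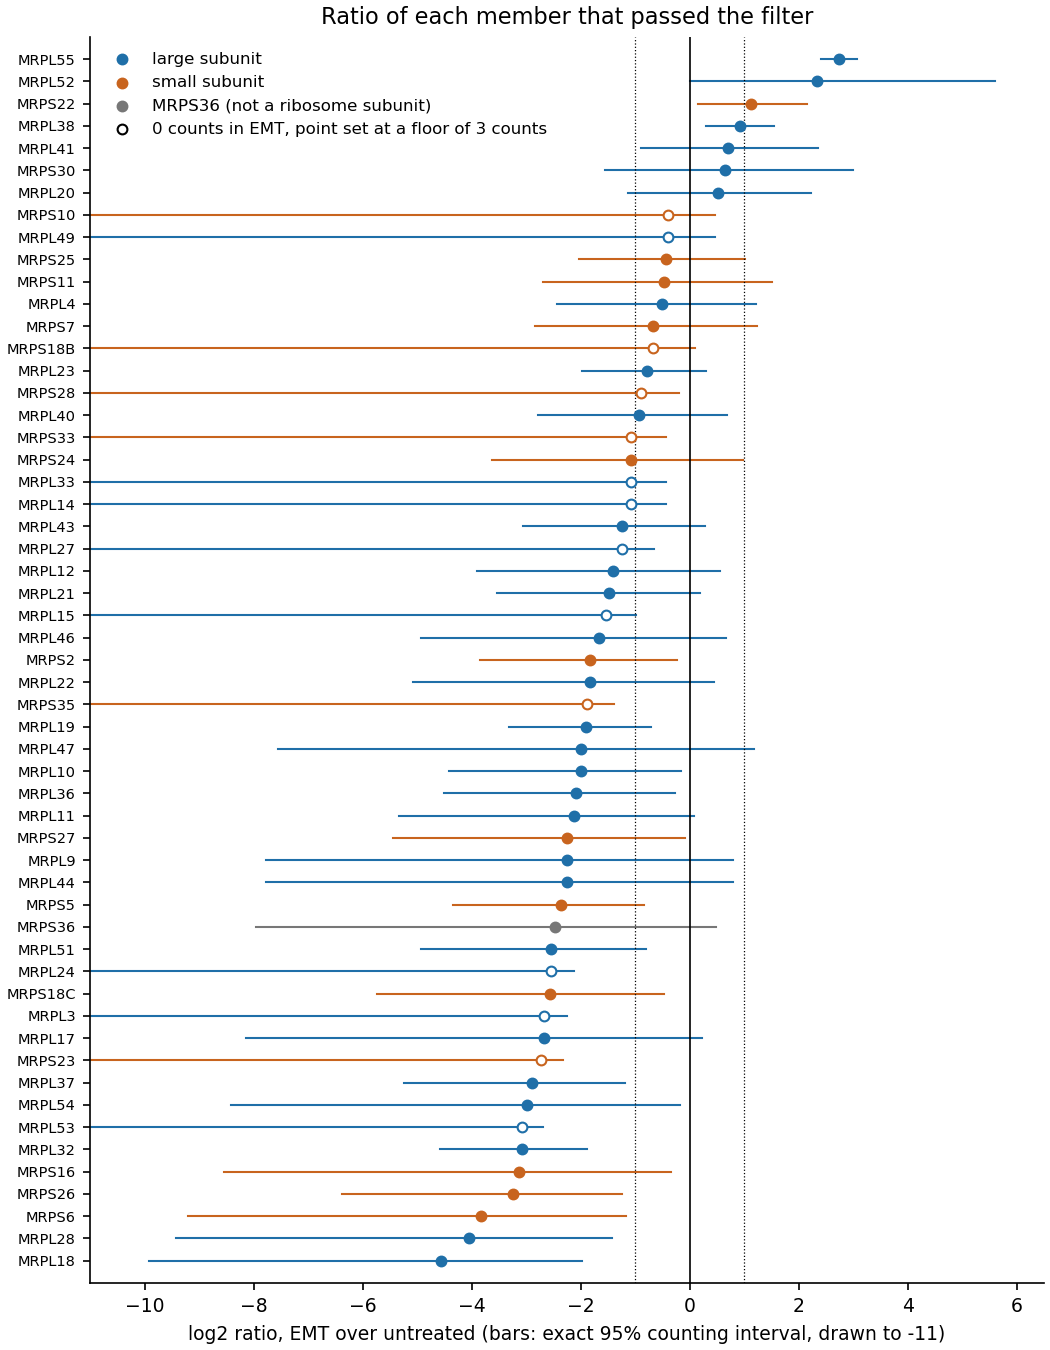
Each point is the log2 ratio (EMT over untreated) of a member at 5 CPM or more in a library, with its exact 95% counting interval as a bar. Open points mark 0 counts in the EMT library set at the floor of 3 counts. Points to the left of 0 are lower in the EMT library, and MRPL55, MRPL52, MRPS22 and MRPL38 are the members whose bars lie wholly to the right.

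Promoters of genes for mitochondrial proteins often carry sites for NRF1, ETS family factors such as GABP, and YY1. RefSeq promoter windows (GRCh38.p14, 250 bases before to 50 after the start, 300 in all) were matched by symbol for 67 of the 76 members. The ETS core CCGGAAG, searched on both strands, was present in 28 of the 67 (41.8%) and in 10.7% of all 27305 promoters of the same length. The YY1 core AAGATGG was present in 23 (34.3%) against 6.06%, and the longer YY1 motif, which contains this core, in 10 (14.9%) against 0.916%. The NRF1 core GCATGC was present in 9 (13.4%) against 7.48%, and the full NRF1 motif, which contains that core, in 1 (1.49%) against 1.36%. The CCAAT box, searched as CCAAT, was present in 20 (29.9%) against 35.7%. At least 1 of the NRF1, ETS and YY1 cores was present in 45 of the 67 (67.2%) against 21.9%. A match is a run of letters and not a measured binding site.

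The 250 bases before the start are given for 4 members that were lower and for MRPL55, which went the other way. The 4 lower members are examples from those at least 6-fold lower: MRPL32 and MRPL53 in the large subunit, MRPS23 in the small subunit and MRPL3 near the peptidyl transferase centre. They were chosen after their values were seen, and other members that far apart, such as MRPL18, are not shown. MRPL32 lies at chr7:42932126-42932375 (plus strand), MRPL53 at chr2:74472681-74472930 (minus strand), MRPS23 at chr17:57850045-57850294 (minus strand), MRPL3 at chr3:131502972-131503221 (minus strand) and MRPL55 at chr1:228109300-228109549 (minus strand), all in GRCh38.p14. Each is written 5′ to 3′ on the strand of the gene, with the last base next to the start, and capitals mark matches to the cores above or to CCAAT on either strand.
MRPL32: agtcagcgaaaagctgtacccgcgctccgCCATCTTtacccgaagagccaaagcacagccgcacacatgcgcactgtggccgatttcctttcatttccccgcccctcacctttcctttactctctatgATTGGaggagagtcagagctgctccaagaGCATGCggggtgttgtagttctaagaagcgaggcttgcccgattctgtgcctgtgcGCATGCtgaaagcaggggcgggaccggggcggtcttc
MRPL53: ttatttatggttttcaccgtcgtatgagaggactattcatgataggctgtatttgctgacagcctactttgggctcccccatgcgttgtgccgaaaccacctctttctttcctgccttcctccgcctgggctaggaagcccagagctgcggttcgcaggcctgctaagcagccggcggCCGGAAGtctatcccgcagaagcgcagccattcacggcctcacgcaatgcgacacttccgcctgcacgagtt
MRPS23: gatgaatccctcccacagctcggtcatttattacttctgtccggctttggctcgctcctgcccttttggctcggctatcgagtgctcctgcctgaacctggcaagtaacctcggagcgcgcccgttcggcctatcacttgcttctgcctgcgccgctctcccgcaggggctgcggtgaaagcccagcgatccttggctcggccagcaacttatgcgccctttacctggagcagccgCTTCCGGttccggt
MRPL3: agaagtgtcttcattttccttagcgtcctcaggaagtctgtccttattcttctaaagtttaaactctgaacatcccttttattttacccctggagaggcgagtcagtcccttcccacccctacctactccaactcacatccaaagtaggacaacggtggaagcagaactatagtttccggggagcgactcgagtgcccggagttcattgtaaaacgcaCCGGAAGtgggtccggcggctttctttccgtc
MRPL55: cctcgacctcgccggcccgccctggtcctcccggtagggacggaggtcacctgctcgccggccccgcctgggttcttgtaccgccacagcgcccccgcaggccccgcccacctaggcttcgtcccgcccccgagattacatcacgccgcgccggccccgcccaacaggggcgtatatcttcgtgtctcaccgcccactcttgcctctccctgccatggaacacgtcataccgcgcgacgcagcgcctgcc
MRPL32 held the NRF1 core at 93 and at 37 bases before the start, the YY1 core on the other strand (CCATCTT) and a CCAAT box on the other strand (ATTGG). MRPL53, MRPS23 and MRPL3 each held the ETS core, on the gene's strand in MRPL53 and MRPL3 and on the other strand (CTTCCGG) in MRPS23. None of these motifs was found in the MRPL55 stretch, which had the highest GC content of the 5, 71.6%, against 49.6% in the lowest, MRPL3. These 5 stretches are a description and carry no test.

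Gene entries and exon entries of the table did not give the same value for a few members. The deposited expected counts of MRPL53 in the untreated library were 31.8 for the gene and 0 over its exons. MRPL53 shares 1337 bases with CCDC142 on the same strand, whose untreated value was 48.3 for the gene and 79.9 over its exons, so the MRPL53 difference holds for the gene entry alone. MRPL38 had 38.0 counts for the gene and 0 over its exons in the untreated library, and 56.6 and 53.6 in the EMT library. With exon entries its log2 ratio moved from 0.92 to 4.46, a bound set by the floor. MRPL38 shares 11174 bases with RP11-552F3.12 on the same strand, whose untreated value was 45.3 for the gene and 83.7 over its exons. MRPL12 had 9.58 counts for the gene and 0 over its exons in the untreated library and overlaps SLC25A10. Reads of MRPL53, MRPL38 and MRPL12 therefore cannot be told apart from those of these partners.

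Overlap with other genes was common. Of the 76 members, 42 shared bases with another gene entry that held a count, and 34 did not. Of the 34, 22 reached 5 CPM, with 17 at least 2-fold lower and 2 higher. Of the 42, 33 reached 5 CPM, with 21 lower and 1 higher, the latter being MRPS22. Over all genes at that level, 26.7% were lower and 22% higher. In both parts, members that reached 5 CPM in the untreated library alone had their direction set by the filter. No difference between the parts was tested. The counting's use of strand was not given in the sources used here, and reads from genes overlapping on opposite strands cannot be told apart either. Of 66 pseudogene entries of the members, 10 held a count, with sums of 39 (EMT) and 48 (untreated). MRPL9P1 held 32 in each library, and reads shared with such copies could not be assigned here.

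**Figure D4:**
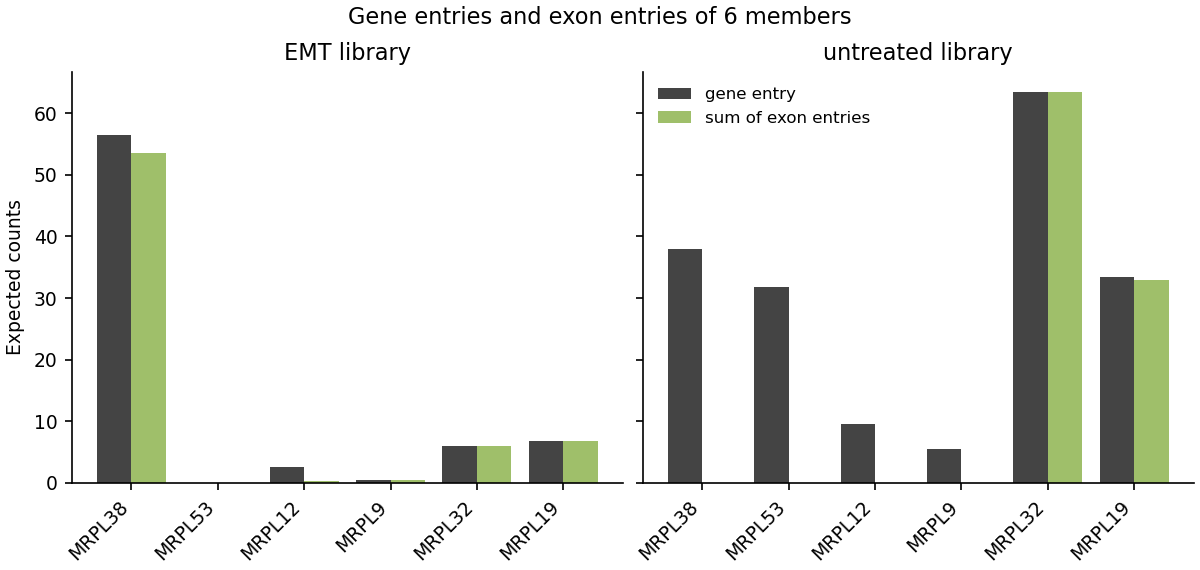
Bars give the deposited expected counts of the gene entry and the sum of the exon entries for 6 members, with the EMT and untreated libraries in separate panels and the vertical axis starting at 0. For MRPL38 and MRPL53 in the untreated library the gene bars stand at 38.0 and 31.8 while the exon sums are 0.

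The machinery around the ribosome gave values that varied by list. Over all genes at 5 CPM in 1 library or more, 26.7% were lower and 22% higher. In each list here and below, genes at that level in 1 library alone had their direction set by the filter. Subunits named outside the symbol rule had 24 counts against 124, and of the 6 of 7 that reached 5 CPM, 5 were at least 2-fold lower and 0 higher. AURKAIP1, of the small subunit, had 3 counts against 46 and a log2 ratio of -3.60 (-5.93 to -1.97). DAP3, a GTP-binding small-subunit protein, had 6 against 20 (-3.01 to -0.03). Both intervals lay below equality, that of DAP3 by less than the 0.08 by which upper quartile scaling raised each log2 ratio. Of 16 translation factors, 9 reached 5 CPM, 5 were lower and 1 higher. TUFM, the mitochondrial elongation factor Tu, had 4 against 32 and a log2 ratio of -2.66 (-4.62 to -1.17).

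Assembly and RNA-modifying factors fell on both sides of equality. Of 25 such genes, 22 reached 5 CPM, and their median was -0.21. At least 2-fold lower were 7 (31.8%) and higher 8 (36.4%), against 26.7% and 22% of all genes. Scaling by DESeq2 size factors or total counts left 4 or 5 of them higher, against 17.5% and 19% of all genes. MPV17L2, among the 8, had 3 counts against 1 and so no ratio. With intervals that exclude equality, 4 (18.2%) were lower and 2 (9.09%) higher, near the 16.8% and 9.99% of all genes. NSUN4, a ribosomal RNA methyltransferase, had 48 counts in the EMT library and 67 without treatment, a log2 ratio of -0.15. DHX30, an RNA helicase of ribosome assembly, had 25 against 15 and a log2 ratio of 1.07 (0.09 to 2.10). Of 17 mitochondrial aminoacyl-tRNA synthetases, which charge the transfer RNAs, 10 reached 5 CPM, with 3 lower and 4 higher, the latter 2 under either of those scalings. The intervals of the 3 lower genes included equality, and those of 4 genes lay above it, against 9.99% of all genes. Of these 4, HARS2, VARS2 and PARS2 had 0 counts in the untreated library, so their direction was set by the filter. Their median of 0.24 changed sign, to -0.25, among genes counted over more than 1 exon. AARS2, the alanyl synthetase, had 34 against 21 and a log2 ratio of 1.03 (0.20 to 1.89). The -0.22 that DESeq2 size factors added to each log2 ratio takes the lower limits of DHX30 and AARS2 past equality.

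Of 9 genes for mitochondrial transcription and DNA upkeep, 9 reached 5 CPM, with 4 at least 2-fold lower and 0 higher, and a median of -0.89. The lower count was 7 under DESeq2 size factors or total counts, which put 33.8% and 30.1% of all genes at least 2-fold lower. TEFM, an elongation factor of the mitochondrial RNA polymerase, had 18 counts against 42 and a log2 ratio of -0.89 (-1.77 to -0.06). POLRMT, that polymerase, had 12 against 23, a log2 ratio of -0.60. Of 9 regulators of nuclear genes for mitochondria, 7 reached 5 CPM, with 3 lower and 0 higher. MYC had 12 counts against 95, a log2 ratio of -2.65, while YY1 had 23 against 25, a log2 ratio of 0.22. Mitochondrially encoded genes were not analysed here.

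Cytosolic ribosomal protein genes, which build the ribosome of the cytosol, were also lower in the EMT library. Of 89 genes, 77 reached 5 CPM, 65 of them at least 2-fold lower and 3 higher, and their median was -3.19. Their summed counts were 1499 against 21592, a 12.7-fold lower share. For the mitochondrial set the share was 1.11-fold lower with all 76 members and 3.06-fold lower without MRPL55. MRPL55 was left out after the data were seen, and no gene was left out of the cytosolic list. RPS16 had 103 counts against 1962, a log2 ratio of -3.92. Nuclear genes of oxidative phosphorylation, whose complexes contain the products of the mitochondrial ribosome, numbered 134 entries, of which 51 have pseudogene symbols. Of the 69 at 5 CPM or more, 45 were lower and 3 higher (median -1.90), of which NDUFV3 had 3 counts against 1 and so no ratio, with sums of 571 against 2115. COX6B1, a cytochrome c oxidase subunit, had 7 counts against 178, while COX4I1 of the same enzyme had 125 against 106, a log2 ratio of 0.57. No difference between these lists and the mitochondrial ribosomal protein genes was tested.

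**Figure D5:**
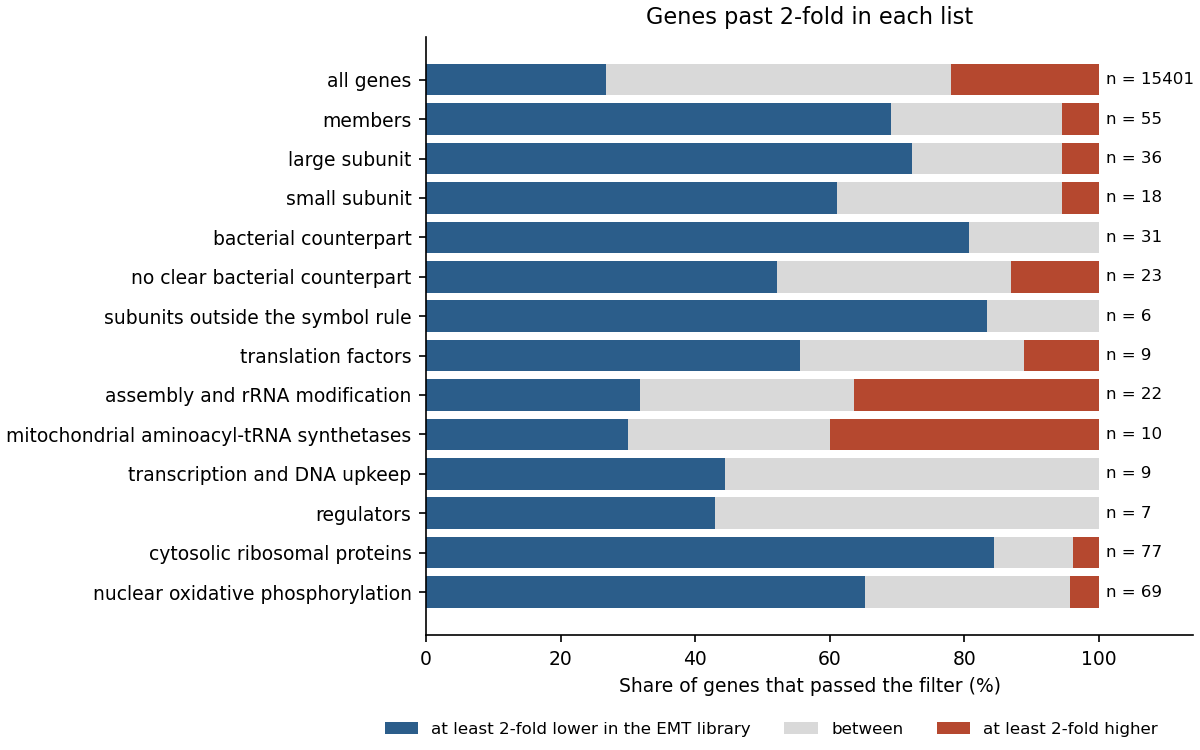
Horizontal bars give, for each list, the share (%) of genes at 5 CPM or more that were at least 2-fold lower, between, or at least 2-fold higher in the EMT library, with all genes tested for comparison. The lower share was 69.1% for the mitochondrial ribosomal protein genes, 84.4% for cytosolic ribosomal protein genes and 26.7% for all genes.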

How the data were processed

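The authors deposited, per the file headers, a table of expected counts (estimates, many of them not whole) for genes, transcripts and exons in 2 libraries, without normalization. The build hg19 and the tool DESeq come from the submitters' processing notes. The aligner, counter, strand setting and amplicon positions were not given in the sources used here. Gene entries were rounded to whole counts and scaled by TMM in edgeR 4.0.16 (R 4.3.3), with factors of 0.946 (EMT) and 1.06 (untreated). A gene entered with at least 5 CPM in 1 library. The log2 ratio has no pseudocount, and a 0 was set to a floor of 3 counts in its library, 5.31 CPM (EMT) or 4.21 CPM (untreated). No ratio is printed where both counts were at or under 3; tallies and medians keep such a gene at its computed value if it passes the filter. Intervals are exact 95% (Clopper-Pearson) on the split of a gene's counts between libraries. The scaling, ratios and intervals were tested on simulated data. Members named were a panel by role, the 10 with the most untreated CPM, those at least 2-fold higher, those within 2-fold at 20 CPM or more, and up to 4 genes of each other list with the most summed CPM. Members, lists and alternatives were chosen with earlier results of these data known. Alternatives were other scalings (DESeq2 1.42.0 size factors, total counts, upper quartile), other filters, no rounding, and exon entries. Mitochondrially encoded genes were not analysed here. A mesenchymal marker of the planned list is not reported here.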

Additional observations from a re-analysis of the deposited data

How the results depend on the processing

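No paired analysis was possible because each group had 1 library. For the members as a whole, the count at least 2-fold lower (38) was 18 with a filter of 20 CPM, 17 without members sharing bases with another gene and 12 with 5 CPM in both libraries, where fewer genes were tested, and the count at least 2-fold higher (3) was 6 with a filter of 1 CPM or none, against 25.3% of all genes. The median log2 ratio was -2.54 at 20 CPM and -1.003 with 5 CPM in both libraries. Of all genes, 36% were lower at 20 CPM, 19.7% with 5 CPM in both libraries and 16.8% where the interval had to exclude equality. At 20 CPM, 19 members passed through the untreated library only, so the filter set their direction. In the large subunit the lower count (26) was 12 at 20 CPM and 16 where the interval had to exclude equality, and the higher count (2) was 4 with 1 CPM or no filter and 1 at 20 CPM, among genes counted over more than 1 exon (19.9% of all genes), or without MRPL55. Its median was -2.54 at 20 CPM. In the small subunit the lower count (11) was 6 at 20 CPM, and the higher count (1) was 0 with DESeq2 size factors or total counts (17.5% and 19% of all genes) and 2 with 1 CPM or no filter. The log2 ratio of summed shares (-0.15) was 0.11 over a total without the 10 genes with the most counts, -1.61 without MRPL55 and -1.94 without MRPL55 and MRPL38. The median of the mitochondrial aminoacyl-tRNA synthetases (0.24) was -0.25 among genes counted over more than 1 exon and -0.056 as a mean. DESeq2 size factors shifted the log2 ratio of each gene by -0.22 and total counts by -0.16, and the cause of the other differences was not tested. The other 110 values of these summaries stayed within the tolerance for a count or the spread of a ratio. Among single genes and other lists, 483 values did so, 35 moved and 2, given above, changed sign. Alternatives on exon entries, MRPL55, shared bases, 5 CPM in both libraries and intervals under other scalings were chosen after seeing the data. The low counts limit single genes: 3 counts in the EMT library are 5.31 CPM.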
